A study of Mus musculus with 14 samples.

Results

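The genes described are 5 of the CCN family (Cyr61, Ctgf, Nov, Wisp1 and Wisp2, now called Ccn1 to Ccn5), a pair of further genes transcribed by the YAP/TEAD complex (Ankrd1 and Amotl2), and the genes for the complex itself (Yap1, Wwtr1, which encodes TAZ, and Tead1). These 10 genes were chosen by symbol, in knowledge of how they differed in both experiments, so their differences are given as a description, without p-values of their own. How many of them passed a threshold is stated only beside the share of all genes that did. All 10 were found among the 16481 genes of the pancreatic stellate cell (PSC) table and among the 54532 genes of the liver table.

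CCN proteins are secreted, modular matrix proteins that bind integrins, syndecans and growth factors, and CTGF is widely used as a marker of fibrosis. YAP and TAZ are transcriptional coactivators that enter the nucleus when the kinases of the Hippo pathway are inactive. They have no DNA-binding domain of their own and reach their target genes through TEAD factors. Stretch and a stiff matrix are known to activate YAP and TAZ in stellate cells and fibroblasts.

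PSCs, the cells that become fibroblasts in a diseased pancreas, were prepared from mice aged 8 to 12 weeks and grown for 3 days on Matrigel. Each of 3 preparations was given 25 µM Yoda1, an agonist of the mechano-gated channel PIEZO1, or its solvent DMSO. The Methods put RNA isolation 24 hours after Yoda1, whereas the legend of the enrichment plots gives 72 hours. The livers came from mice, also aged 8 to 12 weeks, 20 days after KPCY cells, mouse pancreatic cancer cells with yellow fluorescent protein and functional TRPV4, had been placed in the tail of the pancreas. The 2 WT mice were Piezo1 fl/fl without Cre. The 3 TRPV4-KO mice were Trpv4-/- in every tissue, and the 3 GSK219 mice were WT mice given the TRPV4 antagonist GSK2193874 at 10 mg/kg by gavage every day. Whether the WT mice received the carrier of the drug is not stated, so GSK219 and its gavage cannot be told apart. The WT and TRPV4-KO mice came from lines of different sources, so the Trpv4 genotype and the mouse line cannot be told apart either.

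PSC libraries held 27312894 to 39070539 reads, and liver libraries 15567031 to 17395299. Of the 9 stellate or fibroblast markers, 9 had reads in the PSCs, with Col1a1 between 6830 and 13200 CPM, which are counts scaled to library size. The leukocyte marker Ptprc did not exceed 1.07 CPM there, whereas the epithelial marker Krt19 reached 199 CPM. In livers Alb lay between 31600 and 74000 CPM. Trpv4, the deleted gene, had 43 and 53 counts in the WT livers and 15, 5 and 23 in the TRPV4-KO livers, a log2 fold change of 1.71 (SE 0.50, adjusted p = 0.16 by edgeR with Benjamini-Hochberg adjustment). Trpv4 passed without TRPV4-KO replicate 3 (adjusted p = 0.044 by edgeR) and by DESeq2 (adjusted p = 0.038). Reads on the locus thus remained in all 3 TRPV4-KO livers. GSK219 livers had 20, 30 and 36 counts of Trpv4. Piezo1, the target of Yoda1, had 15857 ± 1355 (SD, n = 3) normalized reads in DMSO-treated PSCs and 14971 ± 1103 (SD, n = 3) in those given Yoda1, a log2 difference of -0.08 (SE 0.10, adjusted p = 0.66 by limma).

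The promoters of the target genes are shown because TEAD factors recognize the letters GGAATG. RefSeq windows of 300 bases that end shortly after a transcription start on GRCm38.p6 were at hand for 5 of the 10 genes, namely Cyr61, Ankrd1, Amotl2, Yap1 and Wwtr1. No window was at hand for Ctgf, Nov, Wisp1, Wisp2 and Tead1, so nothing can be said of their letters. Capitals mark GGAATG or its reverse complement CATTCC, read on the strand of the gene. The windows of Cyr61 (chr3:145649936-145650235, minus strand), Ankrd1 (chr19:36119795-36120094, minus strand) and Amotl2 (chr9:102717554-102717853, plus strand) are given 5′ to 3′.
Cyr61: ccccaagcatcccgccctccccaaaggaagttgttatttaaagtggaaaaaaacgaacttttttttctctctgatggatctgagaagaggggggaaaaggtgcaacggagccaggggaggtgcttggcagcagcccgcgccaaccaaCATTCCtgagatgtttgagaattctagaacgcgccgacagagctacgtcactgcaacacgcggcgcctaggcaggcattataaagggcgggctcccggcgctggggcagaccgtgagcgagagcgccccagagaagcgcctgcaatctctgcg
Ankrd1: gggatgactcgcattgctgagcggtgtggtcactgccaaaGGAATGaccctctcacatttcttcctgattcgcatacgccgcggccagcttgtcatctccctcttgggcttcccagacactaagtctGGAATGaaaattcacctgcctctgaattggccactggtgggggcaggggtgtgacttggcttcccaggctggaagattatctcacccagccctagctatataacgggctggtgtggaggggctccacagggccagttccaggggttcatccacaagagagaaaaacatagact
Amotl2: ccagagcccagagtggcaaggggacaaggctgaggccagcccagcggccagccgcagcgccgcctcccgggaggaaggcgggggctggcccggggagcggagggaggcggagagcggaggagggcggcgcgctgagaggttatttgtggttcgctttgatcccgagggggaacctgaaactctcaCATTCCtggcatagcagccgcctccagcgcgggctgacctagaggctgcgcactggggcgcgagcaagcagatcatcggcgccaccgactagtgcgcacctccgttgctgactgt
Ankrd1 held 2 copies on the strand of the gene, which began 210 and 123 bases before the start. Cyr61 and Amotl2 each held 1 copy on the opposite strand, beginning 103 and 65 bases before the start. The same letters stood 141 bases before the start of Yap1, and 136 and 170 bases before the start in the 2 overlapping windows listed for Wwtr1. The Amotl2 window lies inside the gene model, which begins at 102716672, so its start is an internal one. Of all 32851 promoter windows, 14.7% held GGAATG on either strand. A TATA box, TATAAA or its reverse complement, was found in the window of Cyr61 alone among these 5 genes, and in 13.6% of all windows. These matches describe the letters only, since TEAD binding was not measured.

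In PSCs under DMSO the 10 genes spanned a wide range of levels. Per length, in CPM per kb of gene model, Ctgf was at 843 ± 157 (SD, n = 3) and Cyr61 at 493 ± 23.3. Ankrd1, a nuclear ankyrin-repeat protein first known from heart muscle, followed at 125 ± 13.2. Wisp1 at 90.7 ± 7.12 and Amotl2 at 88.9 ± 8.77 could not be ordered, because their 3 libraries overlapped. Below them stood Tead1 (50.5 ± 5.16), Wwtr1 (35.3 ± 0.440), Yap1 (20.9 ± 0.644), Wisp2 (8.00 ± 2.05) and Nov (0.814 ± 0.265). Every other pair of neighbors in this order was separate in all 3 libraries.

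**Figure D1:**
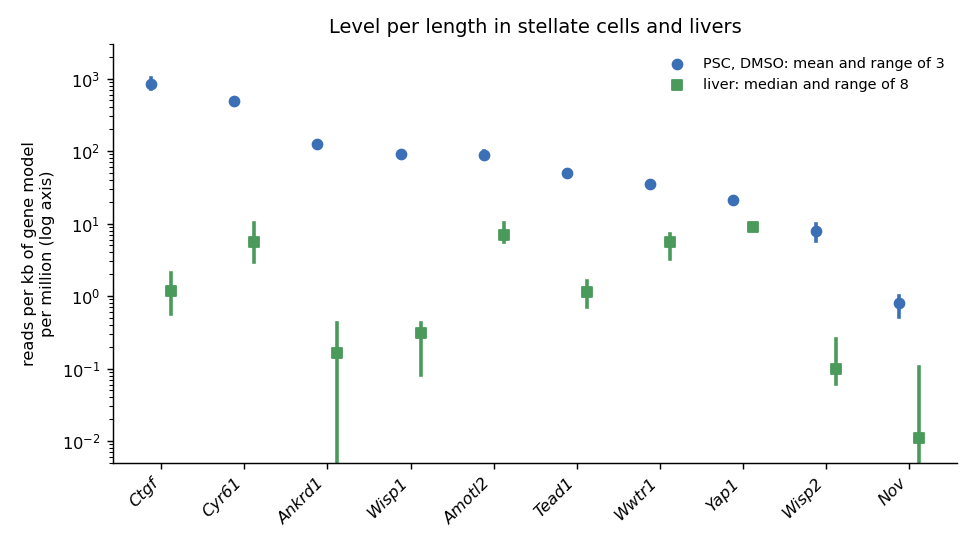
Level per length on a log axis, in CPM per kb of gene model, for the 10 genes. Blue points and bars are the mean and range of 3 PSC libraries with DMSO, and green squares and bars the median and range of 8 livers (bars that reach the lower edge go down to 0). Ctgf and Cyr61 lead in PSCs. Yap1 has the highest median in livers, where the ranges of Amotl2 and Cyr61 reach higher.

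With Yoda1, Wisp2 and Wisp1 were lower in each preparation and their treatments were far apart. Cyr61 was also lower in each preparation, but Cyr61, Ctgf and Nov overlapped between treatments. No test compared the CCN genes with each other. Of the 10 genes, 2 passed an adjusted p under 0.05 by limma, both lower with Yoda1, beside 2.34% of the 15145 genes tested (1.15% lower). With the preparation as a replicate block the same 2 passed, beside 3.99% of genes. The SE values given for PSCs come from the fit without this block. With edgeR on recovered reads and the block Tead1 passed as well, beside 18.0% of genes. The count was 0 without DMSO replicate 1, 2 or 3 or Yoda1 replicate 1 or 2, and 1 without Yoda1 replicate 3. Without DMSO replicate 2 or Yoda1 replicate 2, 0 of all genes passed, although 2132 and 2279 genes had an unadjusted p under 0.05. Because the genes were chosen with this contrast known, their count is not evidence of its own.

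Wisp2 (ENSMUSG00000027656, chromosome 2 from 163820861 to 163833146 of GRCm38) encodes a CCN protein that lacks the C-terminal cystine knot of the others. Its normalized read count was 643, 377 and 566 in the 3 DMSO libraries and 91.2, 53.5 and 63.3 in the Yoda1 libraries of the same preparations. The highest Yoda1 library was thus well below the lowest DMSO library. The DMSO mean of 529 ± 137 (SD, n = 3) was 7.62-fold higher than the Yoda1 mean of 69.4 ± 19.6 (SD, n = 3). On the scale of log2(value + 1) the difference was -2.91 (SE 0.28), and -2.80, -2.79 and -3.14 in the 3 preparations. These 3 values lay close together although the DMSO level of preparation 2 was the lowest. Recovered reads numbered 336 to 561 with DMSO and 65 to 97 with Yoda1, so the Yoda1 values carried more counting error.

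Wisp1 (ENSMUSG00000005124, chromosome 15 from 66891320 to 66923201), a CCN gene known as a target of Wnt signaling, was expressed more strongly. It stood at 15655, 17705 and 18700 normalized reads with DMSO and at 8252, 7341 and 6132 with Yoda1. The treatments did not overlap, and preparation 3, highest under DMSO, was lowest under Yoda1. The DMSO mean was 17353 ± 1552 (SD, n = 3) and the Yoda1 mean 7242 ± 1064 (SD, n = 3), a change of -58.3%, and the log2 difference was -1.27 (SE 0.13). By preparation it was -0.92, -1.27 and -1.61. Across the alternatives the log2 difference of Wisp1 stayed between -1.37 and -1.15 and that of Wisp2 between -3.14 and -2.75.

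Ctgf (ENSMUSG00000019997, chromosome 10 from 24595442 to 24598683) and Cyr61 (ENSMUSG00000028195, chromosome 3 from 145646976 to 145649981) are the CCN genes most often used to read out YAP activity. Ctgf was at 77012, 69814 and 102253 normalized reads with DMSO and at 71957, 74218 and 91495 with Yoda1. Preparation 3 was the highest under both treatments, and preparation 2 moved up while the others moved down, so the log2 difference of -0.06 (SE 0.18) was smaller than the spread between preparations. Cyr61 was at 35352, 32050 and 35095 with DMSO and at 25947, 27337 and 33327 with Yoda1. It was lower in each preparation, by -0.45, -0.23 and -0.07 on the log2 scale, but the highest Yoda1 library exceeded the lowest DMSO library (log2 difference -0.25, SE 0.11). Nov (ENSMUSG00000037362, chromosome 15 from 54745702 to 54754039), a CCN protein known to oppose CTGF in kidney and stellate cells, had only 51 to 88 reads per library. Its preparations disagreed in direction (-0.25, -0.92 and 0.20), and no difference was detectable at this depth and spread.

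**Figure D2:**
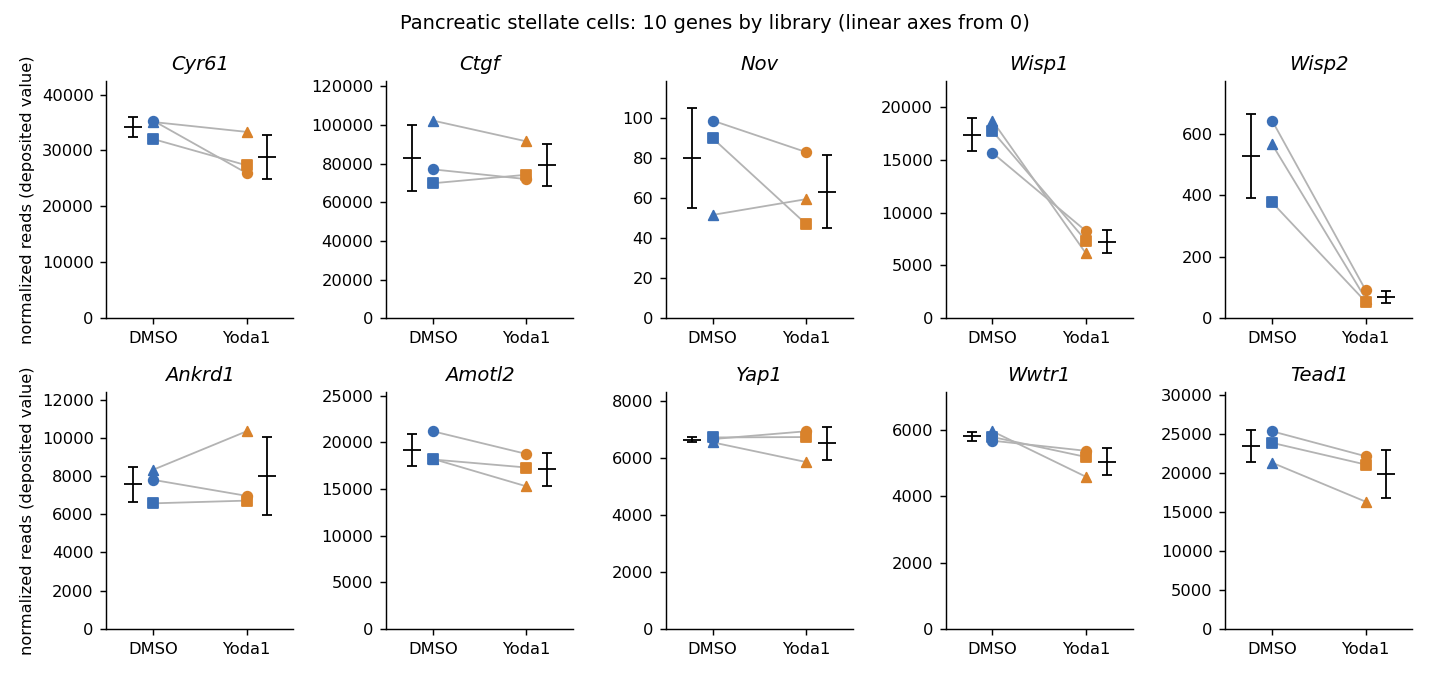
Normalized read count (deposited value, linear axes from 0) of the 10 genes in PSCs with DMSO (blue) and Yoda1 (orange). Circle, square and triangle are preparations 1, 2 and 3, joined by gray lines, and black bars are the mean ± SD of 3 libraries. The treatments are separate for Wisp1, Wisp2 and Wwtr1 and overlap for the other 7 genes.

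For Ankrd1 and Amotl2, the targets outside the CCN family, the treatments overlapped. Ankrd1 (ENSMUSG00000024803, chromosome 19 from 36111965 to 36119844) was at 7798, 6569 and 8324 normalized reads with DMSO and at 6960, 6711 and 10339 with Yoda1. The direction differed between preparations, and the highest value of all 6 was a Yoda1 library (log2 difference 0.06, SE 0.20). Amotl2 (ENSMUSG00000032531, chromosome 9 from 102716672 to 102733418) encodes an angiomotin that binds YAP and is itself a YAP target. Its values were 21194, 18169 and 18234 with DMSO and 18761, 17307 and 15287 with Yoda1. Each preparation was lower with Yoda1, but the treatments overlapped (log2 difference -0.17, SE 0.11).

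Of the genes of the complex, Yap1 had the smallest log2 difference. Yap1 (ENSMUSG00000053110, chromosome 9 from 7931999 to 8004596) was at 6662, 6719 and 6548 with DMSO, a coefficient of variation of 1.31%, and at 6936, 6733 and 5856 with Yoda1. Its log2 difference was -0.03 (SE 0.08). Wwtr1 (ENSMUSG00000027803, chromosome 3 from 57455649 to 57575910) was at 5670, 5781 and 5953 with DMSO and at 5365, 5180 and 4583 with Yoda1. Its treatments did not overlap, but the mean was lower by only -13.1% (log2 difference -0.21, SE 0.08). Tead1 (ENSMUSG00000055320, chromosome 7 from 112679318 to 112906807) was at 25331, 23848 and 21302 with DMSO and at 22129, 21064 and 16307 with Yoda1 (log2 difference -0.25, SE 0.14). Its Yoda1 library was the lower one in each preparation, and preparation 3 was the lowest under both treatments.

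In all, 3 of the 10 genes had every Yoda1 library below every DMSO library, against 15.1% of all genes tested. By preparation, 6 of the 10 were lower in 3 of 3 and 0 were higher in 3 of 3, where 29.4% and 27.2% of all genes were. The median log2 difference of the 10 genes was -0.23, beside -0.01 for all genes. The summed level of the 9 stellate or fibroblast markers also differed between treatments, with 24010 to 26000 CPM under DMSO and 13050 to 16280 under Yoda1. None of the 9 was at 0. The sum of the 4 endothelial markers listed was 50.1 to 61.9 CPM under DMSO and 35.1 to 41.3 under Yoda1. Sums of 5 epithelial markers (1251 to 1679 CPM under DMSO, 1022 to 2284 under Yoda1) and of 5 mesothelial markers (1067 to 1167 and 979 to 1772) overlapped. The part of these markers in the values of Wisp1 and Wisp2 was not tested.

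**Figure D3:**
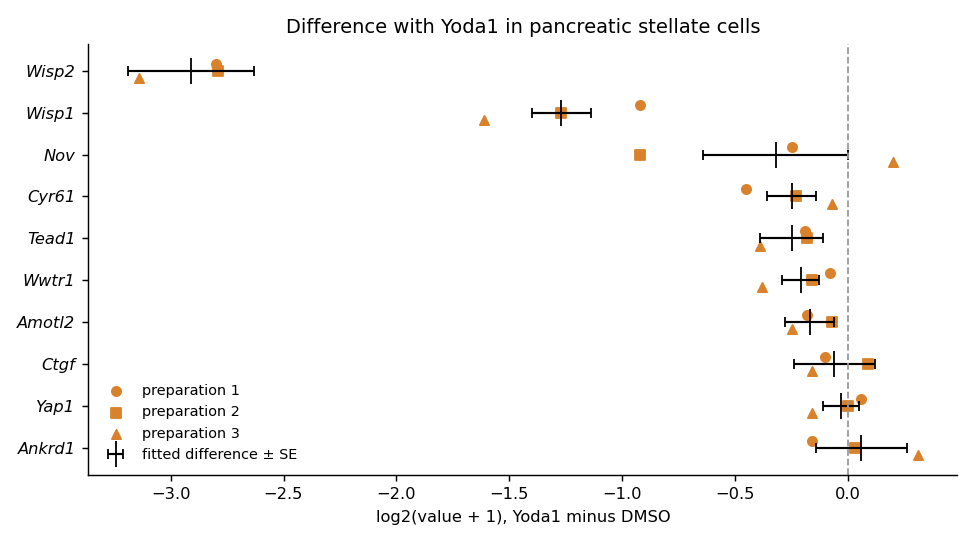
Difference between Yoda1 and DMSO on the scale of log2(value + 1) for the 10 genes in PSCs. Symbols are the 3 preparations, and the black tick and bar are the fitted difference ± SE, from the fit that leaves the pairing by preparation out. Wisp2 and Wisp1 lie at -2.91 and -1.27, and the other 8 genes between -0.32 and 0.06.

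The wider pathway was read from 57 genes in 5 lists, of which 54 were tested in PSCs. By limma with Benjamini-Hochberg adjustment over all genes, 1 rose and 1 fell, so 2 of 54 passed, beside the 2.34% of all genes. Among 18 further YAP/TEAD targets, Ccdc80, a secreted protein bound to the matrix, fell from 26007 ± 1694 (SD, n = 3) to 14328 ± 2200 (SD, n = 3) normalized reads (log2 difference -0.87, SE 0.13, adjusted p = 0.039 by limma). The median of these 18 targets was -0.14. Among 21 Hippo kinases and upstream regulators, Dchs1, a protocadherin and ligand of FAT4, rose from 110 ± 4.92 (SD, n = 3) to 214 ± 24.5 (SD, n = 3) (log2 difference 0.95, SE 0.10, adjusted p = 0.028 by limma). The kinases themselves stayed near 0 on the log2 scale, with 0.01 for Stk3, 0.02 for Lats1 and -0.00 for Stk4, and none of them passed. Of 5 TEAD paralogs and Vgll cofactors and of 10 CCN receptors tested, 0 passed by limma, while 1 and 3 had an unadjusted p under 0.05, as did 20.9% of all genes. Ccdc80 no longer passed without any 1 of the 6 libraries, and Dchs1 passed only without Yoda1 replicate 3 among these 6 fits. Their log2 differences stayed between -0.98 and -0.77 and between 0.89 and 1.05, while 0 to 115 of all genes passed in these fits. In the fit with the replicate block, which called 3.99% of all genes, 4 of the 54 list genes passed, Ccdc80 and Dchs1 (adjusted p = 0.041 and 0.043 by limma) and also Tgfb2, a TGF-β ligand, and Nuak2, a kinase and YAP target. Tgfb2 went from 2321 ± 324 (SD, n = 3) under DMSO to 868 ± 281 (SD, n = 3) under Yoda1 (log2 difference -1.46, adjusted p = 0.037 by limma with the block). Nuak2 went from 2487 ± 332 (SD, n = 3) to 1700 ± 304 (SD, n = 3) (log2 difference -0.56, adjusted p = 0.043 by limma with the block).

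**Figure D4:**
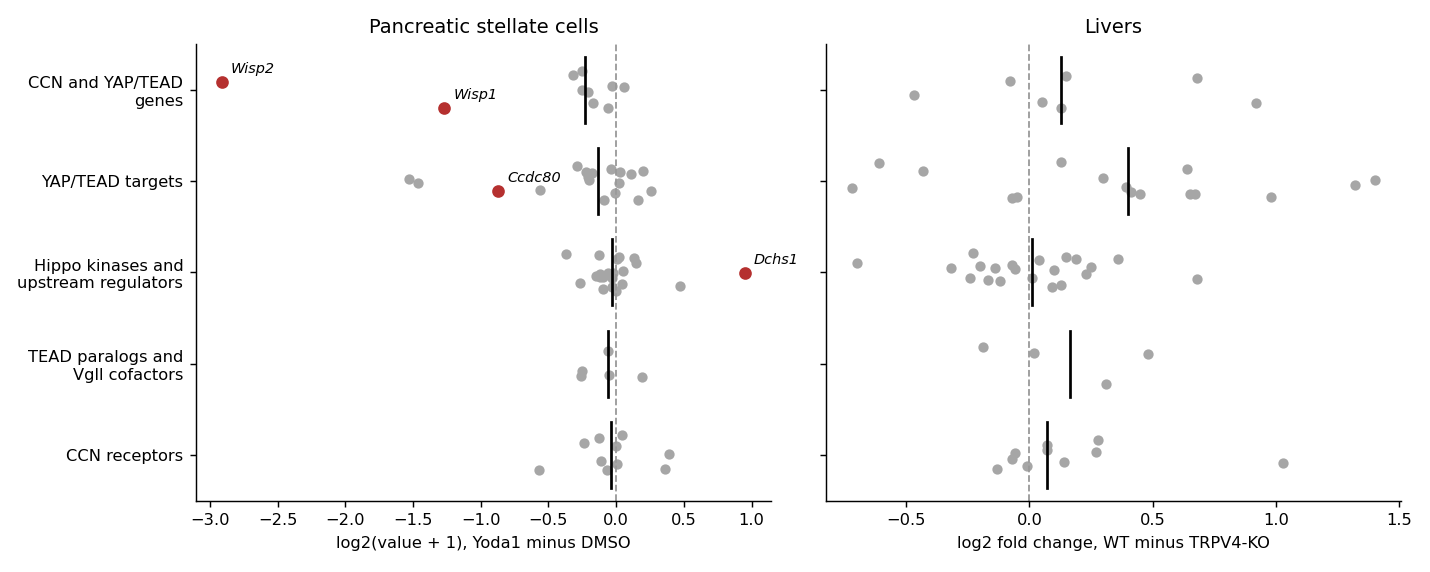
Log2 differences of the CCN and YAP/TEAD genes and of 4 pathway lists, in PSCs (left, Yoda1 minus DMSO) and in livers (right, WT minus TRPV4-KO). Each point is a tested gene, shifted vertically at random, red points passed an adjusted p under 0.05, and black lines are medians. Red points are Wisp2, Wisp1, Ccdc80 and Dchs1 in PSCs, and there are none in livers.

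In livers the order of levels was another. Per length, in TMM-normalized CPM per kb, the median of 8 livers was 9.06 for Yap1, 7.01 for Amotl2, 5.57 for Wwtr1 and 5.50 for Cyr61. The ranges overlapped between neighbors in this order, whereas every liver had more Yap1 than the highest Wwtr1 level. Ctgf at 1.17 and Tead1 at 1.16 formed a second pair, and Wisp1 was at 0.308. Ctgf, the highest of the 10 genes in PSCs, was thus below Yap1 in livers. The libraries of PSCs and livers were made at different facilities and normalized separately, so no test was made between them. Nov had at most 5 counts in any liver, Wisp2 at most 8 and Ankrd1 at most 13, so these 3 genes did not pass the filter on low counts.

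TRPV4-KO livers had the lowest Cyr61 of the 3 groups, and Amotl2 was higher in both other groups than in WT on average. Of the 10 genes, 7 were tested and 0 passed an adjusted p under 0.05 by edgeR in WT against TRPV4-KO, beside 0.291% of 15118 genes. In WT against GSK219 0 passed, beside 0.0% of genes, and in TRPV4-KO against GSK219 0 passed, beside 0.106%. At an unadjusted p under 0.05 the numbers were 1, 0 and 1 of 7, beside 17.1%, 8.22% and 6.12% of all genes. DESeq2 called 0 of the 10 in each comparison, beside 2.9%, 0.411% and 0.419%. Without TRPV4-KO replicate 3, Amotl2 passed in WT against TRPV4-KO, in a fit that called 1291 of all genes (8.64%). The first 2 comparisons share the WT livers, and the last shares its livers with both.

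Cyr61 had 272 and 216 counts in the WT livers, 93, 143 and 142 in the TRPV4-KO livers, and 232, 343 and 161 with GSK219. Scaled to CPM, the WT livers were at 16.8 and 12.6, the TRPV4-KO livers at 5.88, 9.26 and 8.22, and those given GSK219 at 14.6, 20.7 and 9.62. Every TRPV4-KO liver lay below every other liver, although GSK219 replicate 3 came close to the highest of them. The WT mean was 14.7 ± 3.00 (SD, n = 2), the TRPV4-KO mean 7.79 ± 1.73 (SD, n = 3) and the GSK219 mean 15.0 ± 5.56 (SD, n = 3). The log2 fold change was 0.92 (SE 0.32) for WT over TRPV4-KO, -0.03 (SE 0.32) for WT over GSK219 and -0.94 (SE 0.30) for TRPV4-KO over GSK219. Over 11 alternatives the first of these stayed between 0.70 and 1.12. Of all genes tested, 17.7% had both WT livers above all TRPV4-KO livers, and 4.35% had all TRPV4-KO livers below all GSK219 livers.

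Each group held 1 liver with Xist reads, while the others had reads of Y-linked genes. Within the livers with Xist reads Cyr61 was at 16.8 CPM in WT, 8.22 in TRPV4-KO and 9.62 with GSK219. Within the others it was at 12.6 in WT, at 5.88 and 9.26 in TRPV4-KO and at 14.6 and 20.7 with GSK219. With a term for these reads in the fit of all 8 livers, the log2 fold change of WT over TRPV4-KO was 0.95.

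Summed markers of several cell types also differed between WT and TRPV4-KO livers. All 5 endothelial markers had reads, and their sum was 376 to 418 CPM for WT, 232 to 354 for TRPV4-KO and 279 to 370 for GSK219. The 5 hepatic stellate markers, with none at 0, summed to 147 to 157 CPM for WT, 63.9 to 132 for TRPV4-KO and 99.7 to 152 for GSK219. In the same order, the 9 stellate or fibroblast markers summed to 324 to 427, 123 to 277 and 165 to 272 CPM. The sum of the 5 macrophage or Kupffer markers was 941 to 1040, 256 to 554 and 261 to 652 CPM, and that of the 4 pan-leukocyte markers 178 to 233, 56.1 to 127 and 58.8 to 123. The 5 neutrophil markers stood furthest apart, at 38.6 to 45.2, 0.885 to 5.44 and 1.89 to 4.07 CPM. The sum of the 5 hepatocyte markers was lowest in WT, at 48030 to 58370 CPM against 69740 to 89490 and 67680 to 77450. None of these markers was at 0. In GSK219 livers the endothelial, fibroblast, macrophage, leukocyte and neutrophil sums lay below both WT livers. The hepatic stellate sum and Cyr61 overlapped with WT. The part of the marker sums in the level of Cyr61 was not tested, and in whole liver fewer cells of a type and less RNA per cell cannot be told apart.

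Amotl2 was at 35.4 and 40.6 CPM in the WT livers, at 55.0, 64.7 and 38.3 in the TRPV4-KO livers and at 50.8, 42.2 and 46.0 after GSK219. Both WT livers were below all GSK219 livers, as for 11.7% of genes, while TRPV4-KO replicate 3 lay between the WT livers. The log2 fold change was -0.47 (SE 0.21) for WT over TRPV4-KO, or -0.65 without that liver and -0.65 to -0.30 over all fits with 1 liver left out, and -0.28 (SE 0.21) for WT over GSK219.

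Ctgf had 56 and 39 counts in the WT livers, 67, 25 and 56 in the TRPV4-KO livers and 34, 85 and 98 after GSK219. The 3 groups overlapped, and the TRPV4-KO livers alone ranged from 1.62 to 4.24 CPM. The log2 fold changes were -0.08 (SE 0.52) for WT over TRPV4-KO and -0.61 (SE 0.52) for WT over GSK219. With 1 liver left out they ranged from -0.40 to 0.23 and from -0.95 to -0.34. Wisp1, with 7 to 39 counts per liver, overlapped between all groups as well (0.68, SE 0.58, for WT over TRPV4-KO). This value was 0.30 without TRPV4-KO replicate 2, 1.08 without TRPV4-KO replicate 3 and 1.07 with a replicate block. Differences of Ctgf and Wisp1 were therefore not detectable at this depth and spread.

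Yap1 varied least of the 10 genes, with a coefficient of variation of 6.76% over 8 livers. It was at 80.5 and 89.9 CPM in the WT livers, at 82.8, 89.0 and 74.4 in the TRPV4-KO livers and at 87.9, 84.9 and 77.4 after GSK219, and the log2 fold change of WT over TRPV4-KO was 0.05 (SE 0.12). Wwtr1 ranged from 15.7 CPM in GSK219 replicate 3 to 33.95 in GSK219 replicate 2, a spread within 1 group that covered every other liver (0.13, SE 0.30). Tead1 was at 22.1 and 12.1 CPM in the WT livers, at 16.4, 9.59 and 19.97 in the TRPV4-KO livers and at 11.6, 15.0 and 20.9 after GSK219 (0.15, SE 0.38). With 1 liver left out, WT over TRPV4-KO ranged from -0.33 to 0.54 for Tead1, from -0.03 to 0.30 for Wwtr1 and from -0.02 to 0.14 for Yap1. The coactivator genes and Tead1 thus showed no difference between groups larger than the spread within them.

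**Figure D5:**
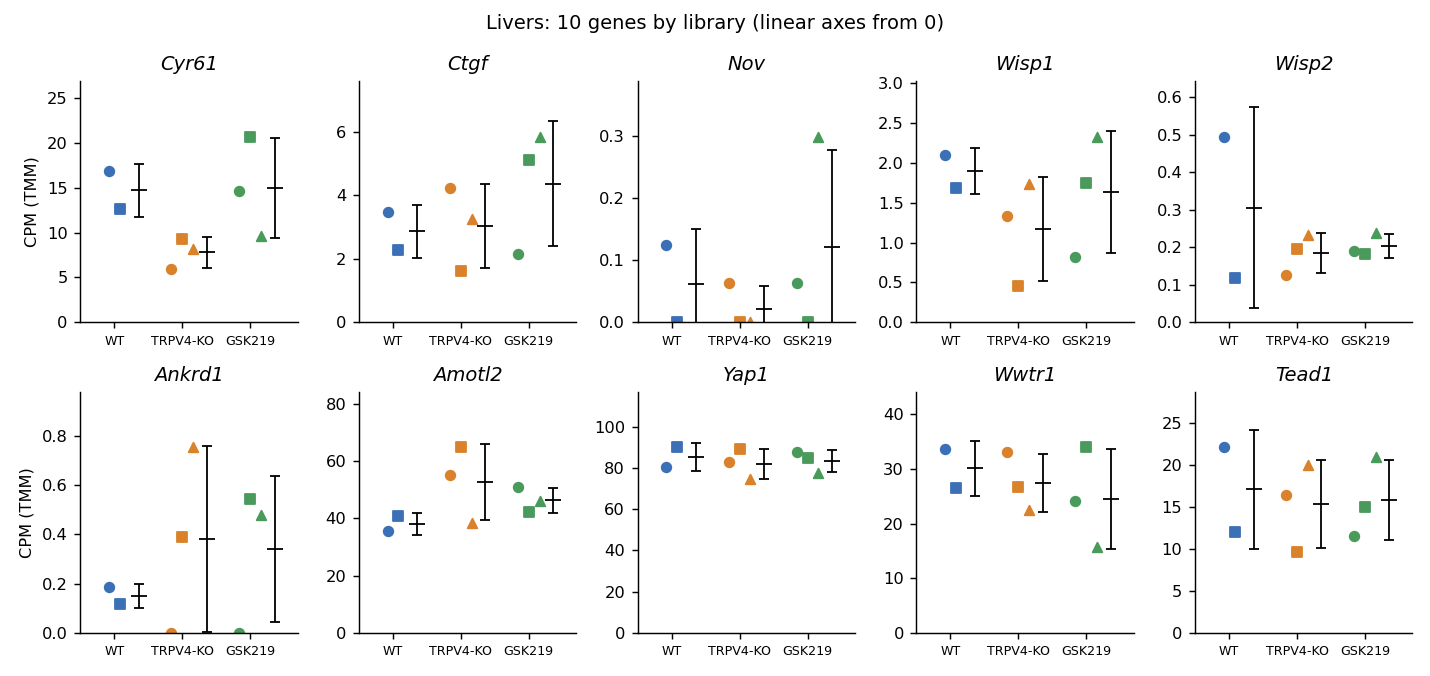
TMM-normalized CPM (linear axes from 0) of the 10 genes in 2 WT (blue), 3 TRPV4-KO (orange) and 3 GSK219 (green) livers. Circle, square and triangle are replicates 1, 2 and 3 as numbered in the labels, and black bars are the mean ± SD. For Cyr61 the TRPV4-KO livers lie below all other livers, and for Yap1 the groups lie together.

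Of the 57 list genes, 52 were tested in livers and 0 passed by edgeR in any of the 3 comparisons, while 6, 5 and 1 of the 52 had an unadjusted p under 0.05, against the 17.1%, 8.22% and 6.12% of all genes. DESeq2 called 3, 0 and 0 of 55, where it called 2.9%, 0.411% and 0.419% of all genes. The median log2 fold change of WT over TRPV4-KO was 0.40 for 16 further YAP/TEAD targets, 11 of them above 0, and -0.01 for all genes, of which 7376 of 15116 were above 0. For WT over GSK219 the median of these targets was 0.20, with 12 of 16 above 0, where 7512 of 15116 genes were. The part of the fibroblast, macrophage and leukocyte sums, which were higher in WT than in both other groups, was not tested. The median of WT over TRPV4-KO was 0.01 for the Hippo kinases and upstream regulators, 0.17 for the TEAD paralogs and Vgll cofactors and 0.07 for the CCN receptors. Wisp3 (Ccn6), the remaining family member, had 6 to 13 counts per liver (log2 fold change of WT over TRPV4-KO -0.51, SE 0.54, adjusted p = 0.68 by edgeR). It was not listed in the PSC table. Piezo1 was at 21.4 CPM for WT, 13.4 for TRPV4-KO and 13.6 for GSK219 (WT over TRPV4-KO 0.67, SE 0.26, adjusted p = 0.25 by edgeR). Without TRPV4-KO replicate 3 it passed, at 0.92.

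The genes whose profile was most like that of a CCN gene were found by Pearson's r of log2 levels, as a description over libraries that share their treatment groups and processing. Over the 8 livers and 13215 genes, Cyr61 was most like Ift46 (r = 0.991), Pde5a (0.966) and Rbpms (0.961), and Ctgf most like Sav1 (0.951), Gm11808 (0.937) and Irf2bp2 (0.917). Sav1 encodes the scaffold of the Hippo kinases. Ctgf and Cyr61 did not follow each other in livers (r = 0.03), whereas Ctgf was closer to Wisp1 (0.77) and Tead1 (0.75). Over the 6 PSC libraries Wisp2 was most like 4930429B21Rik (0.999), Msrb1 (0.997) and Trpv2 (0.997), and its r with Wisp1 was 0.96. These values include the difference between treatments, and Wisp1 and Wisp2 were both lower with Yoda1. Preparation 1 had the highest Wisp2 and the lowest Wisp1 under DMSO, and the highest of both under Yoda1.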

How the data were processed

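RNA-Seq of mouse livers and PSCs was analyzed. The authors deposited raw read counts per gene for the livers, with gene lengths and GRCm38 coordinates. For the PSCs they deposited a signal per gene, which is the read count over a size factor of the library. All 98886 PSC values were whole multiples of the step of their library within 0.1 reads (100%), so reads could be recovered. HISAT2 2.0.5 and Trim Galore are named in the processing notes, and the counting tool is not given in the sources used here. The score, p-value and log2 fold change columns of the authors' own comparison were deposited too and not used, nor were 7 liver columns that matched no sample.

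The 10 genes and the 5 lists were chosen with earlier results of these data known. PSC values were tested by limma 3.58.1 (R 4.3.3) on log2(value + 1), keeping genes that reached 10 in 3 or more libraries, since the deposited values are not counts. Liver counts were tested by edgeR 4.0.16 (TMM, filter with minimum count 10, robust quasi-likelihood fit of 8 livers). Calls are adjusted p under 0.05 (Benjamini-Hochberg over all genes). The labels call the livers biological replicates and say no more, so liver p-values measure only the spread between these samples. Libraries of one preparation deviated together (r = 0.43, 0.26 and 0.53 across genes), so PSC numbers pair the samples. The main PSC fit and its SE leave this pairing out, and the replicate block includes it. With the block the SE was 0.10 for Wisp2 and 0.16 for Wisp1, against 0.28 and 0.13 without it. List genes were named when they passed. Tgfb2, Nuak2 and the other genes named from alternatives, the Hippo kinases and the pairs of correlated members were chosen after their values were seen. Levels per length use all reads on listed genes (PSCs) or TMM library sizes (livers).

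Alternatives were DESeq2 1.42.0, other scaling, filters, pseudocounts (0.1 and 10) and samples, a replicate block, a term for sex reads and a fold threshold. edgeR on recovered reads with the block was added after the data had been seen. Fits were tested on simulated data. Replicates differed beyond counting noise, and liver counts varied with a biological coefficient of variation of 28.3%. Reads carry no molecular identifiers.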

Additional observations from a re-analysis of the deposited data

How the results depend on the processing

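Of 590 values computed under alternatives, 549 were rated as keeping their side of the threshold or moving by less than the spread between replicates. For the 10 genes this rating took the log2 difference and not the call. Wisp1 and Wisp2 were thus rated as unchanged without DMSO replicate 1, where neither passed. A count of 3 of these genes in place of 2 was rated as unchanged too. Among all 590, the sign of a log2 difference changed in 34, in each case for a gene that had not passed. For the CCN and YAP/TEAD genes in PSCs, the number past the threshold was 2, beside 2.34% of all genes. It was 0 to 1 with 1 library left out, beside 0.0% to 0.769%. With all libraries it was 2 under each other setting, beside 1.52% to 9.56% of all genes (the share with the fold threshold is not given). It was 3 (Tead1 added) with edgeR on recovered reads and the replicate block, beside 18.0%. The number of PSC list genes past the threshold was 2. It was 4 with the replicate block (3.99% of all genes passed) or a pseudocount of 10 (3.16%), 5 with edgeR on recovered reads (4.55%), 16 with edgeR on recovered reads and the replicate block (18.0%, chosen after seeing the data), 12 with DESeq2 (9.56%), 1 without the filter (1.52%), 0 with the fold threshold and 0 to 2 with 1 library left out. In livers, the number of the CCN and YAP/TEAD genes that passed in WT against TRPV4-KO was 0, beside 0.291% of all genes. It was 1 without TRPV4-KO replicate 3 (Amotl2, beside 8.64%). The list genes that passed in this comparison numbered 0, and 2 with the replicate block (Map4k4 and Ccdc80, beside 3.51% of all genes), 3 with DESeq2 (Wwc1, Axl and Myof, beside 2.9%) and 0 to 2 with 1 liver left out (Wwc1 and Dock5 without TRPV4-KO replicate 3, beside 8.64%). The cause of these moves was not tested. Same-numbered WT and TRPV4-KO livers correlated by -0.46 and 0.61 and WT and GSK219 livers by -0.54 and 0.31, so these numbers do not pair the livers. Same-numbered TRPV4-KO and GSK219 livers correlated by 0.31, 0.16 and 0.60, and differently numbered ones by -0.54 to 0.55. With the replicate block 0 of the 10 genes and 0 list genes passed in that comparison, as without it (20 and 16 of all genes). With 2 WT livers, no difference of Wisp1 in livers was detectable at this depth and spread, and Nov, Wisp2 and Ankrd1 did not pass the filter on low counts.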

Other observations

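A pair of the complex genes differed along a line that the groups did not follow. The 3 livers with Xist reads, 1 in each group, had the 3 highest levels of Tead1, at 19.97 to 22.08 CPM, against 9.59 to 16.4 in the 5 livers with Y-linked reads. The same 3 livers had the 3 lowest levels of Yap1, at 74.4 to 80.5 CPM against 82.8 to 89.9. Wisp2 did not overlap either, but with 8, 4 and 4 counts against 2 or 3 it was below the filter, and no difference can be read from it at this depth. Of all genes tested in livers, 6.24% were higher and 6.08% lower in all 3 livers with Xist reads than in the other 5. Cyr61, Ctgf, Nov, Wisp1, Ankrd1, Amotl2 and Wwtr1 overlapped between these livers. The livers were set side by side in this way after their values had been seen, and no test was made.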
